A study of Mus musculus with 6 samples.

Results

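Blood group antigens are inherited differences in proteins and sugars of the red cell surface, and the genes described here are the mouse orthologues of 9 carriers of such antigens in humans: Rhd, Rhag, Kel, Xk, Ermap, Gypc, Aqp1, Icam4 and Cd44. They were chosen by name, with earlier results of these data known. Rows with these names were found for 8 of the 9 among 26014 genes, and Icam4 was not analysed here. Each of the 8 had a mean of at least 1 FPKM, the level a gene needed to be tested, as did 11142 genes in all. FPKM divides the fragments counted for a gene by the length of its exons and by the size of the library, so levels of different genes can be set side by side.

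The libraries were made from total RNA of untreated mouse fetal livers at embryonic day 14.5. KO denotes 3 libraries whose labels give a Gata1 3′ UTR knockout, that is, loss of the untranslated end of the Gata1 messenger, and WT denotes 3 wild-type libraries. The study asked which genes differ in fetal red cell production when this stretch is missing. The sources used here give no strain, no number of embryos per library and no extent of the deletion, so the p-values reflect only how far these libraries lie apart, which may be technical. The samples are labelled as embryonic hepatocytes, but the most abundant RNAs were those of red cell precursors: the 11 erythroid identity genes with a row summed to 92475 to 101069 FPKM in KO and to 115940 to 132560 FPKM in WT, and 10 hepatoblast markers to 1064 to 1456 FPKM in KO and 411.3 to 2423 FPKM in WT. Depth was 14822298 to 16211189 fragments per library, as read from the steps between low values.

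In the fetal liver, erythroblasts build the red cell membrane while they still transcribe their genes, before the nucleus is expelled. The Rh proteins sit in the membrane together with Rhag, an ammonium channel without which human Rh antigens do not reach the surface, and this complex contacts the anion exchanger band 3. Kell, a zinc endopeptidase, is tied to XK, a lipid scramblase, by a disulphide bond. Glycophorin C anchors the membrane to the skeleton through protein 4.1 and p55, aquaporin 1 carries water, Ermap is an erythroid protein of the butyrophilin family, Icam4 is an adhesion ligand of integrins, and Cd44 binds hyaluronan.

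GATA1, the transcription factor whose messenger was altered, binds DNA at the core letters GATA. The measured RNA of Gata1 differed between the groups, while its protein was not measured. The promoters of the genes were searched on both strands for the words AGATAA and also TGATAA. The same words ending in G, which are AGATAG and likewise TGATAG, were searched too. RefSeq promoters of build GRCm38.p6, each from 250 bases before to 50 bases after the annotated start, were matched for 8 of the 9 genes, all but Gypc. At least 1 of these words stood in 6 of the 8, against 29.8% of all 32851 promoters of the same length. Aqp1 and Xk had none in this window, and the Aqp1 window ends before the gene start of the deposited table. The words stand in capitals, 5′ to 3′ along the gene, with up to 11 bases on either side, for the genes with a word and a measured level. Where the capitals read TTATCA, the word lies on the other strand as TGATAA.
Rhd, chr4:134864482-134864509, plus strand: ccggcagcctgAGATAAgacctttggcg
Rhag, chr17:40811107-40811134, plus strand: gtcctctgctcTTATCAacactatacag
Kel, chr6:41704365-41704392, minus strand: ctgagaaactaAGATAAaagaggaggtg
Kel, chr6:41704328-41704355, minus strand: tgttccctcacTGATAAgcaggctccac
Ermap, chr4:119190046-119190073, minus strand: gaacgctcgctTTATCAggggtgggcag
Cd44, chr2:102901882-102901909, minus strand: gttcctccctaAGATAAgtccagcttcc
The word began 43 bases before the annotated RefSeq start in Rhd, 31 in Rhag, 56 and 19 in Kel, 67 in Ermap and 233 in Cd44. For Rhag, Kel and Ermap the RefSeq start is not the gene start of the deposited table, so distances from the latter differ. The word of Icam4, counted among the 6, lies inside the gene as annotated in GENCODE M21. A match describes letters only, and neither binding nor promoter activity was measured.

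Rhd and Aqp1 fell in KO, none of the genes rose, and 6 did not pass the test (limma, p adjusted by Benjamini-Hochberg over all tested genes, threshold 0.05). In the same test 9.55% of all tested genes passed, 3.62% lower and 5.93% higher, so 2 of 8 is set against 9.55%. At an unadjusted p under 0.05 none of the 8 was higher and 3 were lower, against 21.2% of all tested genes higher and 7.52% lower. The limma voom test on recovered fragments called 0 of the 8 higher and 3 lower, against 7.51% and 4.2% of all genes in that test. The median log2 fold change was -0.10 over the 8 genes and 0.09 over all tested genes. Libraries of the groups did not overlap for 4 of the 8 genes (Rhd, Aqp1 and Ermap below WT, Cd44 above it), against 35.6% of all tested genes. Fold changes are KO over WT on the scale of log2(FPKM + 1). The counts over all tested genes depended on the scaling of the libraries: 661 genes were higher and 403 lower as deposited, 252 and 495 with median-of-ratios scaling, 777 and 134 with TPM scaling, and 330 and 135 with scaling by non-globin RNA. Rhd and Aqp1 were called lower with each of these scalings, but near the threshold with TPM and non-globin scaling. The adjusted p by limma was 0.0109 for Rhd and 0.0134 for Aqp1 with median-of-ratios scaling. It was 0.0381 and 0.0455 with TPM scaling, and 0.0471 and 0.0499 with non-globin scaling. WT replicate 1 stood apart in the sums used for TPM and non-globin scaling. Relative to the mean library, its sum of FPKM was 1.16 and its sum of non-globin FPKM was 1.15, the largest in each case. Its summed FPKM was 491620, against 400545 to 421672 in the other libraries. The part of this library in the counts and calls that changed with TPM and non-globin scaling was not tested.

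**Figure D1:**
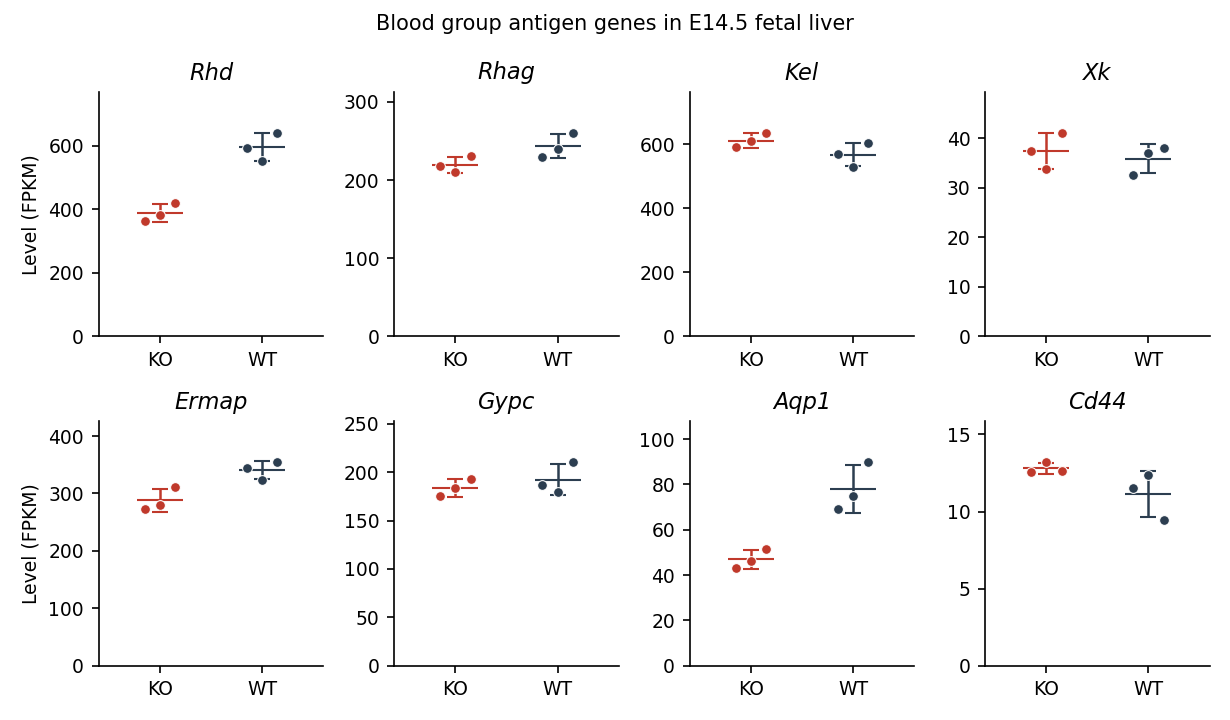
Level in FPKM of each of the 8 measured genes, with KO left of WT, a point for each of the 3 libraries of a group, and a line and bars for mean and SD. Rhd, Ermap and Aqp1 lie lower in all KO libraries than in any WT library, and Cd44 lies higher in all KO libraries.

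Rhd (ENSMUSG00000028825, chr4:134864536-134896172, plus strand, GRCm38), the mouse gene for the Rh polypeptide, stood at 363.2, 382.6 and 419.4 FPKM in KO libraries, against 593.7, 551.3 and 640.5 FPKM in WT libraries. The highest KO library lay well under the lowest WT library. Rhd thus reached 65.3% of its WT level, with a log2 fold change of -0.61, a standard error of 0.080, a 95% interval of -0.80 to -0.43 and an adjusted p of 0.00881 by limma. Without KO replicate 2 the log2 fold change was -0.60 and the call was lost (limma, adjusted p = 0.0526, range over the alternatives 0.00329 to 0.0526).

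Rhag (ENSMUSG00000023926, chr17:40811126-40840754, plus strand), the partner that carries Rh to the membrane, stood at 218.2, 209.9 and 230.7 FPKM in KO libraries, against 229.7, 240.1 and 260.6 FPKM in WT libraries. The groups overlapped in KO replicate 3 and WT replicate 1. Its log2 fold change was -0.15, with a 95% interval of -0.30 to 0.01, and it missed the threshold (limma, adjusted p = 0.192).

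Within each library Rhd was 1.66, 1.82 and 1.82 times as abundant as Rhag in KO, against 2.58, 2.30 and 2.46 times in WT. The relation of the Rh gene to its partner was thus lower in all KO libraries than in any WT library. On the log2 scale the ratio averaged 0.82 ± 0.074 in KO and 1.29 ± 0.085 in WT (SD, n = 3 each). This difference of -0.47 had p = 0.1 in a two-sided exact permutation test, the smallest that 3 against 3 libraries allow. It ran from -0.51 to -0.42 when a library was left out.

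Kel (ENSMUSG00000029866, chr6:41686330-41704339, minus strand), the Kell endopeptidase, stood at 589.4, 608.1 and 635.3 FPKM in KO libraries, against 569.6, 529.0 and 601.9 FPKM in WT libraries. The groups overlapped. The log2 fold change was 0.11, with a 95% interval of -0.05 to 0.26 (limma, adjusted p = 0.310).

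Xk (ENSMUSG00000015342, chrX:9272756-9313250, plus strand), whose loss in humans causes McLeod syndrome, stood at 37.5, 33.9 and 41.2 FPKM in KO libraries, against 32.6, 37.1 and 38.1 FPKM in WT libraries. The groups overlapped, and the log2 fold change of 0.06 had a 95% interval of -0.15 to 0.27 (limma, adjusted p = 0.687). Its sign turned with median-of-ratios scaling, with -0.04. Kel was 15.7, 17.9 and 15.4 times as abundant as Xk in KO libraries and 17.5, 14.3 and 15.8 times in WT libraries, and this ratio overlapped between the groups (log2 difference 0.05, two-sided exact permutation p = 0.7). The difference fell below 0 without KO replicate 2 and without WT replicate 2, at -0.02 each.

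**Figure D2:**
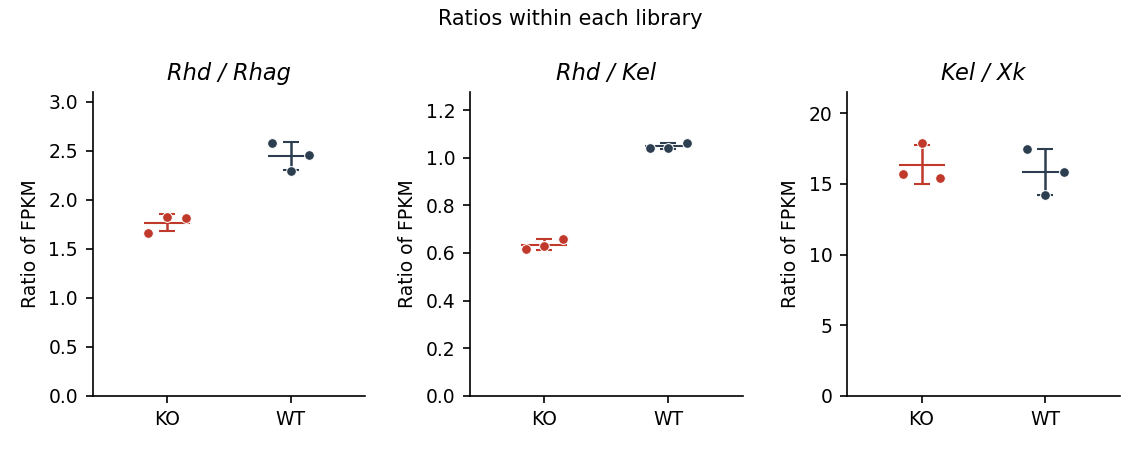
Ratio of FPKM within each library for 3 gene pairs, with KO left of WT, points for libraries, and a line and bars for mean and SD. The ratios of Rhd to Rhag and of Rhd to Kel are lower in all KO libraries, while the ratio of Kel to Xk overlaps between the groups.

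Rhd and Kel were the most abundant of the 8 genes, and their order differed between the groups. In KO the ratio of Rhd to Kel was 0.616, 0.629 and 0.660, so Kel was the more abundant in each library. In WT it was 1.04, 1.04 and 1.06, so Rhd was slightly above Kel in each library, although their means of 595.2 ± 44.6 and 566.9 ± 36.5 FPKM (SD, n = 3) did not differ beyond their spread. This pair was chosen after its values were seen, and no test was made.

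Ermap (ENSMUSG00000028644, chr4:119175457-119190011, minus strand), carrier of the Scianna antigens, stood at 273.5, 280.0 and 310.6 FPKM in KO libraries, against 344.3, 323.8 and 354.9 FPKM in WT libraries. Its highest KO library was under its lowest WT library, as for 8.8% of all tested genes. The log2 fold change of -0.24, with a 95% interval of -0.40 to -0.08, had an unadjusted p of 0.00861 and did not pass (limma, adjusted p = 0.0664). It passed by limma's voom on fragments recovered from the FPKM (adjusted p = 0.0480, range over the alternatives 0.0480 to 0.428).

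Gypc (ENSMUSG00000090523, chr18:32528322-32560034, minus strand), glycophorin C, carrier of the Gerbich antigens, stood at 175.1, 183.6 and 193.4 FPKM in KO libraries, against 187.2, 179.4 and 210.6 FPKM in WT libraries. The groups overlapped. The change of -0.06 on the log2 scale had a 95% interval of -0.24 to 0.11 (limma, adjusted p = 0.609). With TPM scaling the sign turned, to 0.06. Mpp1, which encodes the p55 protein that glycophorin C binds, fell, at 55.5 ± 2.38 FPKM in KO and 65.8 ± 1.84 FPKM in WT (SD, n = 3 each), a change of -0.24 on the log2 scale (limma, adjusted p = 0.0373). That call was kept in 7 of 16 alternatives.

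Aqp1 (ENSMUSG00000004655, chr6:55336432-55348555, plus strand), the water channel that carries the Colton antigens, stood at 43.3, 46.0 and 51.7 FPKM in KO libraries, against 69.3, 74.9 and 89.9 FPKM in WT libraries. The groups were widely apart, although the WT libraries spread more. Aqp1 reached 60.2% of its WT level, with a log2 fold change of -0.71, a standard error of 0.109 and an adjusted p of 0.0139 by limma. The call was lost without KO replicate 1 (limma, adjusted p = 0.0644) and without KO replicate 2 (limma, adjusted p = 0.0669), with a range over the alternatives of 0.00565 to 0.0669. Endothelial cells also make aquaporin 1. The 10 endothelial markers with a row summed to 27.6 to 40.5 FPKM in KO and 16.3 to 37.5 FPKM in WT, and none was at 0 in all libraries. In the main limma fit none of the 8 tested passed, with 2 higher at an unadjusted p under 0.05. By voom 1 was higher. In other alternatives 1 passed as higher with a filter of 5 FPKM, with TPM or non-globin scaling and with protein-coding genes alone. With the replicate number as a block 2 passed as higher. The part of endothelial cells in the level of Aqp1 was not tested.

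Cd44 (ENSMUSG00000005087, chr2:102811141-102901665, minus strand), carrier of the Indian antigens and lost gradually as erythroblasts mature, stood at 12.6, 13.2 and 12.6 FPKM in KO libraries, against 11.5, 12.4 and 9.47 FPKM in WT libraries. All KO libraries were above all WT libraries, by a narrow margin over WT replicate 2, as for 26.8% of all tested genes. The log2 fold change of 0.19 had a 95% interval of -0.03 to 0.42 and missed the threshold (limma, adjusted p = 0.227). White cells and connective tissue carry CD44 too. The 10 neutrophil markers summed to 1666 to 2225 FPKM in KO and 1365 to 1928 FPKM in WT, 10 macrophage markers to 80.0 to 132.2 FPKM in KO and 78.2 to 144.8 FPKM in WT, 8 stellate and mesenchymal markers to 11.2 to 22.6 FPKM in KO and 4.39 to 7.67 FPKM in WT, and 5 lymphoid markers to 13.2 to 17.9 FPKM in KO and 13.7 to 16.9 FPKM in WT. Of the tested markers in these 4 lists only Reln, a stellate marker, passed by limma and by voom, and it was higher (limma, adjusted p = 0.00934, and 0.0519 without KO replicate 2). At an unadjusted p under 0.05 there were 2 stellate markers and 1 neutrophil marker, all higher. The neutrophil marker, Ly6g, averaged 1.43 FPKM in KO and 0.833 FPKM in WT. It reached the level for testing only through KO, so it is a description and no added support. No marker in these lists was at 0 in all libraries, and their part in the level of Cd44 was not tested.

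For Icam4, carrier of the Landsteiner-Wiener antigens, no level was read. An antisense transcript that overlaps its exons on the other strand, AC159314.1, had 0.195, 0.146 and 0.239 FPKM in KO libraries, against 0.426, 0.442 and 0.396 FPKM in WT libraries, from about 8 to 13 fragments in KO and 22 to 25 in WT. It lay under the level for testing. Whether counting used the strand is not stated in those sources, so fragments of Icam4 and of this transcript cannot be told apart, and its values are not a measure of Icam4.

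**Figure D3:**
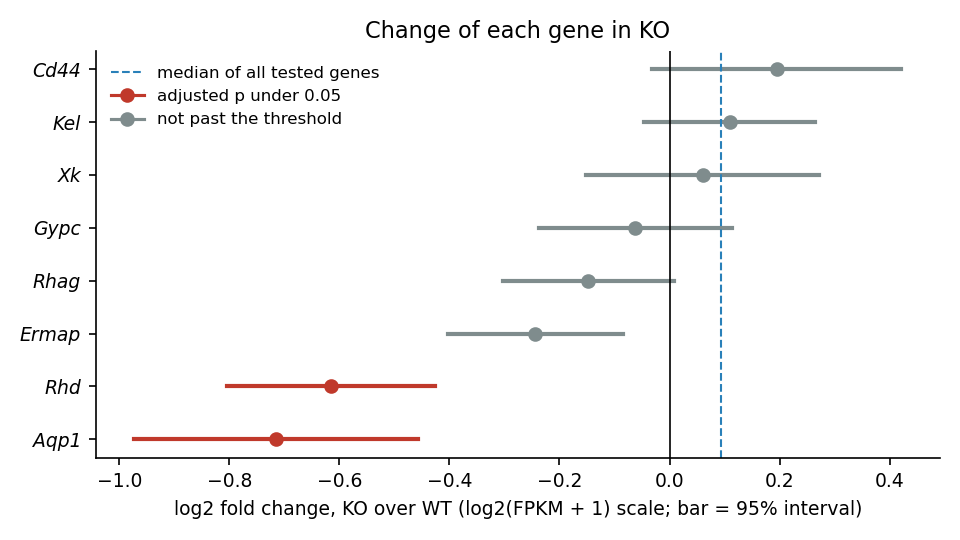
Log2 fold change of the 8 genes, KO over WT, on the log2(FPKM + 1) scale, with bars for the 95% interval of the limma fit and a dashed line at the median of all tested genes. Rhd and Aqp1, in red, passed the test, with intervals wholly below -0.42, while the intervals of Cd44, Kel, Xk, Gypc and Rhag reach across 0.

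The 8 genes covered a wide range of levels. By mean over the 6 libraries Kel ranked 54th of the 11142 tested genes, Rhd 75th, Ermap 131st, Rhag 179th and Gypc 215th, followed by Aqp1 at 798, Xk at 1465 and Cd44 at 4021. Apart from Rhd and Kel, the order was the same in both groups: Ermap, Rhag, Gypc, Aqp1, Xk and Cd44 from high to low. Of neighbours in these orders, Rhd and Kel in WT were the only pair whose libraries overlapped. Aqp1 and Xk were neighbours at 47.0 ± 4.27 and 37.5 ± 3.63 FPKM in KO, and at 78.0 ± 10.7 and 35.9 ± 2.91 FPKM in WT (SD, n = 3 each). The genes rested on 1022 to 29951 fragments per library, which alone gives a counting error of 0.578% to 3.13%. The libraries also moved several genes together: KO replicate 3 was highest of its group for 7 of the 8 genes, and WT replicate 3 was highest of its group for 7 of the 8. In each group the exception was Cd44.

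In bulk RNA, fewer cells of a type and less RNA per cell cannot be told apart. Gata1 itself stood at 67.2, 67.7 and 68.2 FPKM in KO libraries, against 142.9, 141.8 and 165.8 FPKM in WT libraries, a change of -1.13 on the log2 scale (limma, adjusted p = 0.000638), and fragments missing from a deleted 3′ UTR would also lower this value, a part that was not tested. Of 8 GATA1 and erythroid factors 3 fell, Gata1, Lmo2 and Klf1, and 5 did not pass. Lmo2, a bridging partner in the GATA1 complex, changed by -0.45 on the log2 scale (limma, adjusted p = 0.00475), a call lost with TPM and non-globin scaling. Klf1, which switches on adult beta globin, changed by -0.35 (limma, adjusted p = 0.0372), a call kept in 8 of 16 alternatives. Tal1, another member of that complex, had 0.24 and missed the threshold (limma, adjusted p = 0.0582), but passed in 4 of 16 alternatives: with a filter of 5 FPKM, without WT replicate 3, by voom and with protein-coding genes alone. Of the 11 tested erythroid identity genes 6 fell and none rose, with a median log2 fold change of -0.35. At an unadjusted p under 0.05 there were 8 lower and 1 higher, and by voom 8 lower and 0 higher. Among those that fell were Tfrc, Alas2, Epb42, Slc4a1 and Hbb-bs. With TPM or non-globin scaling none of the 11 passed, with 4 and 5 lower and 1 higher at an unadjusted p under 0.05. Without KO replicate 1 or 2 there was 1 lower, and without KO replicate 3, WT replicate 1 or WT replicate 3 there were 3. Without WT replicate 2 there were 5. Of 10 megakaryocyte markers 7 rose and none fell, at an unadjusted p under 0.05 9 were higher and 0 lower, and by voom 8 and 0. They summed to 477.3 to 863.7 FPKM in KO and 218.9 to 435.1 FPKM in WT. None passed without KO replicate 1, KO replicate 2 or WT replicate 3, with 8 higher at an unadjusted p under 0.05 each time. Without WT replicate 1, 3 passed, without WT replicate 2, 6, and without KO replicate 3, 7. The part of these shifts in the values of the blood group genes was not tested.

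Slc4a1 encodes band 3, the anion exchanger that carries the Diego antigens and to which the Rh complex is attached. It stood at 1705, 1737 and 1868 FPKM in KO libraries, against 2379, 2052 and 2370 FPKM in WT libraries, or -0.35 on the log2 scale (limma, adjusted p = 0.0436, a call kept in 7 of 16 alternatives). As a percentage of the Slc4a1 level of the same library, Rhd stood at 21.9 ± 0.581% in KO and 26.3 ± 1.15% in WT (SD, n = 3 each). Aqp1 stood at 2.65 ± 0.113% in KO and 3.45 ± 0.472% in WT by the same measure. Kel, by contrast, stood at 34.5 ± 0.501% in KO and 25.0 ± 0.969% in WT. Relative to Slc4a1, Rhd and Aqp1 were lower in all KO libraries and Rhag, Kel, Xk, Ermap, Gypc and Cd44 higher in all of them. All 8 ratios share the lower level of Slc4a1 in KO, and no test was made of them.

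The list of other blood group systems had 35 genes, of which 32 had a row and 25 were tested. Of these 6 rose and 6 fell, with a median log2 fold change of -0.05. Those that rose were Cd99l2, Aqp3, Ache, Abcc4, Cd59a and Emp3, and among those that fell were Ackr1, Art4, Abcg2, Cd59b and Slc4a1. Counts changed with the scaling: 4 rose and 6 fell with median-of-ratios scaling, 6 rose and none fell with TPM scaling, and 5 rose and none fell with non-globin scaling. Without KO replicate 1, 2 or 3, 3 rose and 2 fell each time, and without WT replicate 3, 4 rose and 2 fell. Without WT replicate 1, 5 rose and 5 fell, and without WT replicate 2, 6 rose and 4 fell.

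Ackr1, the Duffy chemokine receptor, fell to 27.1 ± 0.948 FPKM in KO, against 41.1 ± 3.61 FPKM in WT (SD, n = 3 each), or -0.58 on the log2 scale (limma, adjusted p = 0.00787), with its call lost with TPM and non-globin scaling. Ache, the acetylcholinesterase that carries the Yt antigens, rose to 64.9 ± 1.14 FPKM in KO, against 42.7 ± 4.31 FPKM in WT, a change of 0.60 on the log2 scale (limma, adjusted p = 0.00881). Cd99l2, a relative of the CD99 antigen of the Xg system, rose to 15.5 ± 0.555 FPKM in KO, against 8.82 ± 0.790 FPKM in WT, or 0.75 on the log2 scale (limma, adjusted p = 0.00394). The calls of Ache and Cd99l2 were kept in all 16 alternatives. Cd59a and Cd59b are close copies that may share fragments, so their single values are uncertain. Of those under the level for testing, 7 had a row, among them Bcam, the Lutheran glycoprotein, at 0.480 to 1.07 FPKM in KO and 0.176 to 0.540 FPKM in WT.

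**Figure D4:**
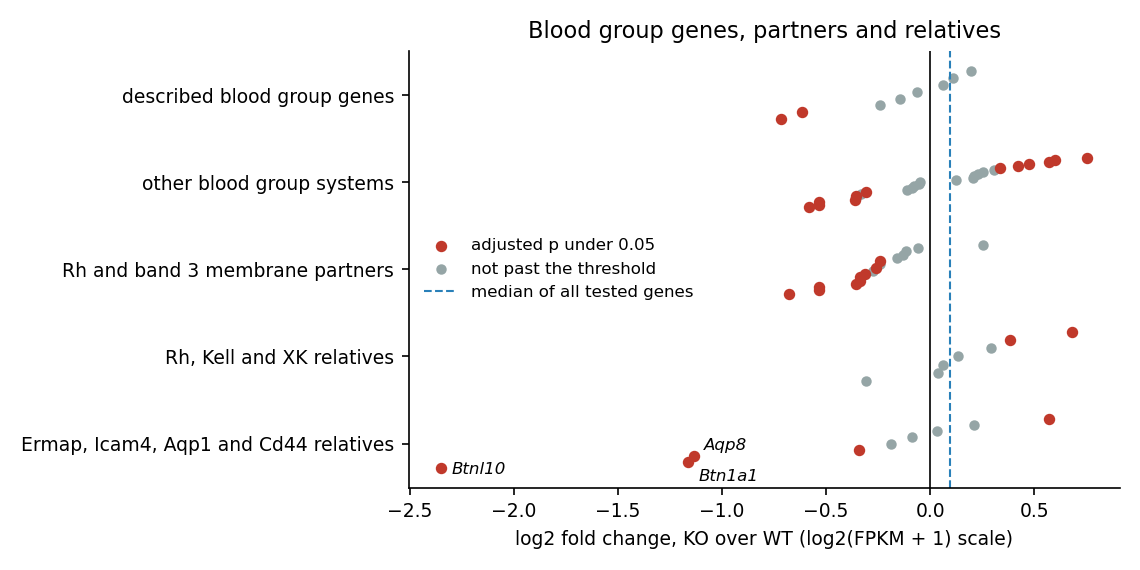
Log2 fold change, KO over WT, of each tested gene in 5 lists, with red points for genes past the limma threshold, grey points for the others, and a dashed line at the median of all tested genes. Partners of the Rh and band 3 complex lie mostly left of 0, other blood group genes lie on both sides, and Btnl10, Btn1a1 and Aqp8 lie farthest left.

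Of the 16 genes listed for the Rh and band 3 membrane complex and the skeleton beneath it, all were tested, 9 fell, none rose and 7 did not pass. The lists overlap. Slc4a1 and Epb42 also stand among the erythroid identity genes, and Slc4a1 among the other blood group systems, so their falls are counted again here. At an unadjusted p under 0.05 there were 12 lower and 1 higher, and by voom 9 lower and 0 higher. The median log2 fold change was -0.27. Slc2a1, the glucose transporter GLUT1, stood at 187.4, 154.3 and 157.0 FPKM in KO libraries, against 301.6, 246.6 and 252.0 FPKM in WT libraries. Its log2 fold change was -0.68 (limma, adjusted p = 0.0148), a call lost without KO replicate 2. Stom, which encodes the membrane protein stomatin, stood at 140.3 ± 6.11 FPKM in KO and 203.9 ± 11.3 FPKM in WT (SD, n = 3 each), or -0.54 on the log2 scale (limma, adjusted p = 0.00570), and Add1, alpha adducin of the skeleton, changed by -0.34 on the same scale (limma, adjusted p = 0.0234), with calls kept in 14 and 9 of 16 alternatives. Cd47, the integrin-associated protein that sits in the Rh complex, had -0.12 (limma, adjusted p = 0.232, not passed). Median-of-ratios scaling left 8 of the 9 calls in number, whereas TPM and non-globin scaling each left 1, Slc2a1. The number that fell was 3 without KO replicate 1, 2 without KO replicate 2 and 5 without KO replicate 3. It was 4 without WT replicate 1, 11 without WT replicate 2 and 3 without WT replicate 3.

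Among relatives of the Rh, Kell and XK proteins 7 of 16 were tested, 2 rose and none fell. At an unadjusted p under 0.05 there were 3 higher and 0 lower, and by voom 2 and 0. Mmel1, a zinc endopeptidase of the Kell family, stood at 11.1, 11.6 and 11.6 FPKM in KO libraries, against 7.20, 6.19 and 6.98 FPKM in WT libraries. It rose by 0.68 on the log2 scale (limma, adjusted p = 0.00467), a call kept in all 16 alternatives. Vps13c, a lipid transfer protein, rose with 0.38 (limma, adjusted p = 0.0238), a call lost without KO replicate 1, 2 or 3 or WT replicate 3 and kept in 10 of 16 alternatives, and Vps13a, whose protein binds XK, had 0.29 (limma, adjusted p = 0.117, not passed). Ece1, an endothelin-converting member of the Kell family, had -0.31 (limma, adjusted p = 0.250, not passed). The non-erythroid Rh relatives Rhbg and Rhcg averaged 0.0440 and 0.0378 FPKM over the 6 libraries, with some libraries at 0, and were not tested.

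Relatives of Ermap, Icam4, Aqp1 and Cd44 held the largest changes among the lists of blood group genes, partners and relatives. Of 17 genes 9 were tested, 4 fell and 1 rose. Without WT replicate 3, 8 were tested and 2 fell, and 3 fell with any other library left out. Btnl10, a butyrophilin-like relative of Ermap, stood at 6.74, 6.47 and 8.41 FPKM in KO libraries, against 38.8, 37.8 and 45.5 FPKM in WT libraries. Its mean in KO was 17.7% of that in WT, and its log2 fold change was -2.35 (limma, adjusted p = 0.000260). Btn1a1, butyrophilin itself, stood at 1.09, 0.970 and 1.17 FPKM in KO libraries, against 3.52, 3.42 and 4.03 FPKM in WT libraries. Its log2 fold change was -1.16 (limma, adjusted p = 0.00165). Ermap, with -0.24 and a call missed, is given beside these values, and the differences between the 3 genes were not tested.

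The aquaporins did not move one way. Aqp8, a channel for water and ammonia, stood at 0.235, 0.362 and 0.405 FPKM in KO libraries, against 1.75, 1.79 and 2.26 FPKM in WT libraries, a change of -1.14 on the log2 scale (limma, adjusted p = 0.00467). Aqp9 fell by 0.34 on the log2 scale (limma, adjusted p = 0.0317), a call lost whichever of the 6 libraries was left out. Aqp3, a water and glycerol channel that carries the GIL antigen, rose to 21.9 ± 0.841 FPKM in KO, against 14.5 ± 0.905 FPKM in WT (SD, n = 3 each), or 0.57 on the log2 scale (limma, adjusted p = 0.00548). The calls of Btnl10 and Aqp3 were kept in all 16 alternatives, and those of Btn1a1 and Aqp8 in all 15 and 14 in which these genes were tested. Aqp8 was under 1 FPKM in every KO library and reached the level for testing only through WT. Its call and the alternatives that kept it are therefore a description and no added support.

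Genes with the most similar pattern were found from log2(FPKM + 1) over the 6 libraries, each profile centred on its own mean, by the smallest root mean square distance to each blood group gene. For Rhd this was Pqlc1, at a distance of 0.033, while the SD of Rhd over the 6 libraries was 0.35. Pfkm, a muscle-type phosphofructokinase, was nearest to Aqp1, at 0.052 against an SD of 0.42. Pqlc1 had a log2 fold change of -0.64 and Pfkm one of -0.72, close to those of Rhd and Aqp1. The choice by smallest distance over the same libraries largely fixes this beforehand, so it is no added support. The nearest profile was that of Kif23 for Ermap (0.026), Cep295 for Rhag (0.019), Chd7 for Kel (0.015), Nipa1 for Xk (0.023), Pabpc4 for Gypc (0.017) and Adh5 for Cd44 (0.015), but these 6 genes varied little, with SDs of 0.091 to 0.16, so a small distance is easily reached. Each distance is the smallest among the profiles of the 11142 tested genes, with the blood group genes left out, over only 6 libraries. It is a description.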

How the data were processed

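The authors deposited FPKM per gene and library in 1 annotated table. Per the labels' protocols, sequencing was paired-end with 150 bases a read. The sources used here name no aligner, counter, build or use of strand. Of 26022 lines, 7 with spilled annotation text and 1 empty line were left out, and 24 names that had become dates were restored. Positions equal those of GENCODE M21 (GRCm38) in 23607 rows. With merged exon lengths, 94.0% to 94.5% of low values checked were whole fragments within 0.02. This gave the depth, and intervals and errors from it cover counting only.

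Groups were compared with limma 3.58.1 (lmFit, then eBayes with trend; R 4.3.3) on log2(FPKM + 1), two-sided, over all genes with a mean of at least 1 FPKM, which understates changes of low genes. The procedure was first run on simulated data. The simulation held no shifts of many genes together within a library, so it does not measure how reliable the calls given here are. Ratios were tested by exact permutation. Alternatives changed the pseudocount, filter, scaling, prior or block or left out a library. Voom and protein-coding genes alone were added after the data were seen. Named genes were the blood group genes, Gata1, up to 4 genes per list with the smallest p, and the nearest profile of each gene. Others are named to spell out counts, and 1 gene that the rule takes is not reported here. Markers that this rule takes but that did not pass are given by list, as counts and sums. The genes and lists were chosen with earlier results of these data known. Tables and figures used Python 3.11.15, matplotlib 3.10.9, numpy 2.4.6 and pandas 2.3.3.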

Additional observations from a re-analysis of the deposited data

How the results depend on the processing

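Gata1 and the blood group genes gave 144 log2 fold changes under the alternatives, of which 135 kept direction and side of the threshold, 3 lost a call, 1 gained one and 5 turned sign. The lost calls were Rhd without KO replicate 2 and Aqp1 without KO replicate 1 or 2, and the gain was Ermap with voom. Signs turned for Xk with median-of-ratios scaling (-0.039), without KO replicate 3 (-0.0068) and without WT replicate 1 (-0.0062), and for Gypc with TPM scaling (0.062) and without WT replicate 3 (0.0044). With a library left out Xk ran from -0.0068 to 0.13 and Gypc from -0.11 to 0.0044. The Kel to Xk difference turned to -0.02 without KO replicate 2 (-0.017) or WT replicate 2 (-0.024) and ran up to 0.12 in the other fits with a library left out. The cause was not tested. The number of blood group genes called lower ran from 0 to 2 with a library left out, where fewer samples were fitted, and was 3 with voom. None was called higher in any alternative. At an unadjusted p under 0.05, 1 was higher with TPM scaling, without WT replicate 2 and without WT replicate 3, and 0 in the other alternatives. Over all genes, against 661 higher and 403 lower, leaving out a library gave 62 to 736 higher and 111 to 395 lower: 97 and 127 without KO replicate 1, 62 and 111 without KO replicate 2, 271 and 224 without KO replicate 3, 439 and 325 without WT replicate 1, and 220 and 202 without WT replicate 3. Without a filter 267 were higher and 246 lower. Median-of-ratios scaling gave 252 higher, TPM scaling 134 lower, and non-globin scaling 330 higher and 135 lower. The median over the whole table moved with these scalings, to 0.01, 0.20 and 0.13 against 0.09 for the deposited FPKM. Same-numbered libraries did not deviate together for replicates 1 and 2 (correlations -0.097 and 0.012). For replicate 3 the correlation was 0.26, the highest of all combinations of a KO and a WT library. KO replicate 1 correlated best with WT replicate 2 and KO replicate 2 with WT replicate 1, at 0.18 each. The numbers are thus not taken as pairs. With the replicate block 686 genes were higher and 386 lower, 2 blood group genes were lower and 0 higher, and the ratio differences stayed -0.47 (p = 0.25, exact, the smallest that 3 pairs allow) and 0.05. Depth limits what can be read of genes such as AC159314.1, since 3 fragments on 1 kb of exon are 0.185 to 0.202 FPKM.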
